A study of Olea europaea with 36 samples.

Results

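Seedlings of the olive cross Picual × Arbequina were compared with both of their parent varieties. Of the 36 arrays, 18 were used: 12 arrays of 4 seedling pools and 6 arrays of the parents, 3 per group. The pools had been composed of seedlings with short internodes (SILe), long internodes (LILe), a small trunk diameter (SmaD) or a large trunk diameter (LarD). All trees were adults growing in the field, and all tissue was actively growing shoot tips that included the shoot apical meristem, harvested in the morning at the end of spring. For a pool, 0.2 g of tissue from each seedling was mixed before RNA extraction, so that the 3 arrays of a pool hold separate shoot samples of the same seedlings and the p-values measure the spread between shoot samples, not between trees. Pools also hold selected seedlings rather than a random draw of the cross. Picual and Arbequina are each a single clonally propagated genotype, so that seedling origin, pooling of genotypes and this cross cannot be told apart in any difference between pools and parents. Another cross, Chiquitita × Arbosana (15 arrays), shares no array with it and was used only as a second set of pools against their own parents. Its pools were seedlings with a Chiquitita-like canopy (ChiCa), with simple branching or with complex branching.

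A seedling inherits a chromosome set from each parent, and for a transcript whose level is set additively by the alleles present, the mean of many seedlings is expected near the midpoint of the parents on a linear scale. Transcripts can also sit at the level of one parent, which is called expression level dominance, or beyond both, which is called transgressive expression. In olive, a clonally propagated and highly heterozygous tree, seedlings of one cross differ widely in vigor and canopy. The shoot apical meristem and the young internodes below it produce the leaves, internodes and axillary buds, and thereby the architecture, of the canopy.

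Each array measured 37449 olive contigs with 60-mer probes. The deposited values are normalized intensities on a linear scale, called intensities here, and tests were run on their log2 values. A contig was called when limma gave an adjusted p under 0.05 over all contigs and the groups differed by at least 2-fold. For most contigs no gene name was at hand. Names come from the study, mostly as putative orthologs of Arabidopsis genes, and the contigs it singled out are called candidates here. There are 14 candidates, and most had been taken from the difference between Chiquitita and Arbosana on these arrays.

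The primer pairs are shown for the 3 candidates whose pools were called against the parental midpoint. In these the pools lay on the side of Picual, below both parents and below Picual. The primers were designed for quantitative RT-PCR, are written from 5′ to 3′ and stand for the forward and the reverse strand of each transcript.
Contig_35467 (SVP) forward: tgccagctccagcatgaaggacata
Contig_35467 (SVP) reverse: actgtcctcgactagctgcttcgg
Contig_12843 forward: ggggctaggaattggtctatg
Contig_12843 reverse: tactttgtgtgcgccttcag
Contig_29050 forward: cttgctgctgtagttgagccta
Contig_29050 reverse: attcgcgatatgtgtgattctg

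The log2 medians of the 18 arrays lay between 9.25 and 9.56. Pearson's r between arrays of a group was between 0.953 and 0.992 in the 5 groups other than SILe. SILe replicate 3 stood apart, with r of 0.839 and 0.842 to the other SILe arrays, which correlated with each other at 0.978, and 40.93% of the contigs lay at least 2-fold from their mean in it. Results are therefore given with all arrays and, where the value moved, without it. The 2 SmaD arrays numbered 2 and 3 name short internodes in another label and were kept as SmaD, as their titles say. In the second cross, Chiquitita replicate 1 lay at least 8-fold from the other Chiquitita arrays in 61 contigs. In 47 of these, simple branching replicate 3 lay at least 8-fold from its own group in the opposite direction, and in 0 in the same direction. This was seen after the values were known, no label was changed, and results of the second cross are given with and without both arrays.

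Most contigs were not called between the pools and the parental midpoint. That midpoint was taken on log2 values and lies below the linear midpoint where the parents differ. A call against it is therefore not by itself a departure from additive levels. The mean of the 4 pools, each weighted equally, differed from the midpoint of Picual and Arbequina in 832 contigs, 2.22% of all, of which 424 (1.13%) were higher and 408 (1.09%) lower in the pools. Without SILe replicate 3, 882 were called, 339 higher and 543 lower. Against Picual alone 1305 contigs (3.48%) were called, 891 (2.38%) higher and 414 (1.11%) lower in the pools, and against Arbequina alone 1594 (4.26%), 945 (2.52%) higher and 649 (1.73%) lower. Picual and Arbequina themselves differed in 2065 contigs (5.51%), with 870 higher in Picual and 1195 higher in Arbequina. Single parental arrays moved these counts: the comparison with the midpoint fell to 482 without Arbequina replicate 3 and 483 without Picual replicate 3, and reached 1672 without Picual replicate 1. When each group mean was taken as a single sample, so that the spread between the 4 pools is the error, 121 contigs differed from the midpoint, 28 higher and 93 lower.

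Taken one by one, each pool differed from the midpoint in fewer contigs. SILe differed in 309 contigs (0.825%), LILe in 587 (1.57%), SmaD in 383 (1.02%) and LarD in 730 (1.95%). In SILe 157 of them were higher, in LILe 347, in SmaD 151 and in LarD 404. These comparisons share the 6 parental arrays, so their counts stand side by side only. They also rest on a common error that SILe replicate 3 widens. Without it, SILe differed in 177 contigs, LILe in 1251, SmaD in 632 and LarD in 3206.

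The pools lay outside the parental range, called higher than both parents or lower than both, in 154 contigs. Of these, 42 (0.112% of all contigs) were above both parents and 112 (0.299%) were below both. Without SILe replicate 3, 45 contigs were above and 166 below, and 32 and 109 were called in both fits. All 154 had each of the 4 pool means beyond both parental means, though they had been called on these same means. Of all contigs, 5152 (13.8%) had each pool mean above and 5533 (14.8%) below both parental means, at any size. Over all contigs, 12 pool arrays lay above all 6 parental arrays in 115 contigs (0.307%) and below all of them in 226 (0.603%). Without SILe replicate 3 the 11 pool arrays did so in 125 (0.334%) and 252 (0.673%). Among the contigs called, the separation of 12 arrays held for 22 of the 42 above and 90 of the 112 below. The parents differed from each other in only 1 of the contigs above (Contig_16524) and in 22 of those below.

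By their medians, the contigs below both parents lay further out than those above. Against the nearer parent, the median change was 2.85-fold for the 112 below, with a range of 2.02 to 23.2 and 34 contigs at 4-fold or more. For the 42 above it was 2.28-fold, with a range of 2.01 to 11.8 and 3 contigs at 4-fold or more (Contig_67895, Contig_16524 and Contig_11305). The median intensity of the contigs below was 388 in the pools, 1510 in Picual and 1950 in Arbequina. That of the contigs above was 1220 in the pools, 455 in Picual and 458 in Arbequina. The scatter of both differences shows these contigs in opposite corners. The number of contigs outside the range rested on the parental arrays as well: it was 85 (10 above, 75 below) without Picual replicate 3 and 100 (19 above, 81 below) without Arbequina replicate 3. With group means as samples 8 contigs passed both comparisons, 1 above and 7 below. The same without SILe replicate 3 gave 0 above and 22 below.

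**Figure D1:**
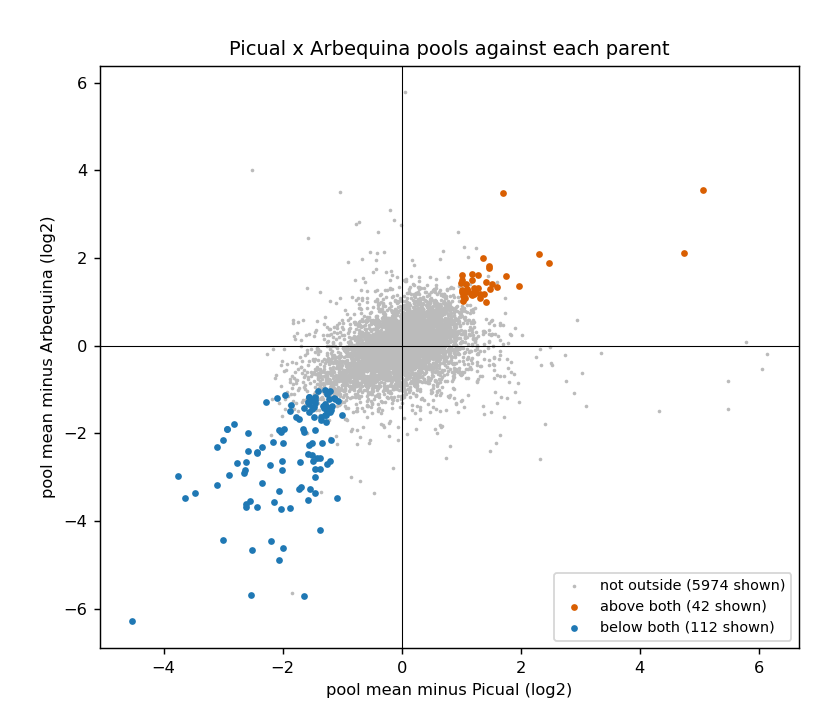
Each point is a contig, placed by the pool mean minus Picual (x axis, log2) and the pool mean minus Arbequina (y axis, log2), with 18 arrays. All 42 contigs above both parents and all 112 below both are drawn over 5974 randomly drawn other contigs, and those below both reach further from the centre than most of those above.

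Contig_67895 had the greatest distance above both parents. Its intensities were 537, 244 and 4269 in SILe, 324, 1842 and 764 in LILe, 1673, 886 and 979 in SmaD, and 962, 481 and 1564 in LarD. In Picual they were 61.3, 17.6 and 17.9, and in Arbequina 97.2, 45.6 and 99.3. All 12 pool arrays lay above all 6 parental arrays, and SILe replicate 3 was the highest. The pools were 33.4-fold above Picual (log2 5.06 ± 0.70 SE, adjusted p = 0.000649) and 11.8-fold above Arbequina (log2 3.56 ± 0.70, adjusted p = 0.00594). These parental intensities are low, and signal over background was not examined.

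Contig_63273 was brighter. Its pool arrays ran from 1353 to 3201 with a median of 2168, against 529 to 844 in the parents, without overlap. It was 3.38-fold above Picual (adjusted p = 0.000432) and 3.01-fold above Arbequina (adjusted p = 0.000688). Contig_25541 likewise did not overlap, with 196 to 468 in the pools and 44.0 to 87.4 in the parents, and was 5.52-fold above Picual and 3.71-fold above Arbequina (adjusted p of 1.55e-05 and 0.000131).

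The other 3 contigs named above both parents did not overlap either. Contig_11305 reached 78.7 to 219 in the pools against 19.3 to 44.2 in the parents, 4.25-fold above the nearer parent. Contig_54695 (358 to 1606 against 205 to 339) was 2.75-fold above the nearer parent, and Contig_43668 (2389 to 5997 against 855 to 1730) 2.57-fold. Contig_54695 lost its call without Picual replicate 2 or 3, and Contig_43668 without Picual replicate 3. Contig_54695 also lost it without the pool SmaD, and both did with a covariate for the direction along which replicates differ, where the log2 differences were 1.16 and 0.84.

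Contig_17728 had the greatest distance below both parents. Its intensities were 998, 402 and 112 in SILe, 112, 649 and 107 in LILe, 156, 331 and 1027 in SmaD, and 201.5, 117 and 149 in LarD. Picual gave 16674, 2346 and 5123, and Arbequina 15322, 23230 and 21636. The groups did not overlap, and Picual itself spread more widely than Arbequina. The pools were 23.2-fold below Picual (log2 -4.54 ± 0.71, adjusted p = 0.00183) and 78.4-fold below Arbequina (log2 -6.29 ± 0.71, adjusted p = 7.6e-05).

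The other 5 contigs named below both parents lay 7.88-fold to 11.1-fold below the nearer parent. Contig_11915 had 16.0 to 124 in the pools and 266 to 817 in the parents. Contig_67503 had 173 to 770 against 2596 to 6883, and its parents were nearly equal, with means of 4712 ± 1949 in Picual and 4421 ± 1926 in Arbequina (SD, n = 3). Neither overlapped, and the adjusted p against each parent was at most 0.000151.

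Contig_66225 (60.3 to 960 against 3131 to 5935), Contig_59288 (274 to 1047 against 3000 to 14142) and Contig_17645 (99.1 to 1413 against 3915 to 9620) did not overlap either. SILe replicate 3 was the lowest pool array of Contig_66225 and of Contig_17645, at 60.3 and 99.1. All 3 were also called without it. Contig_66225 lost its call without Picual replicate 3. With group means as samples, only Contig_67895, Contig_67503 and Contig_66225 kept their call among the contigs named outside the range. When SILe replicate 3 was left out as well, Contig_67895 lost it, while Contig_11915, Contig_59288 and Contig_17645 kept it.

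**Figure D2:**
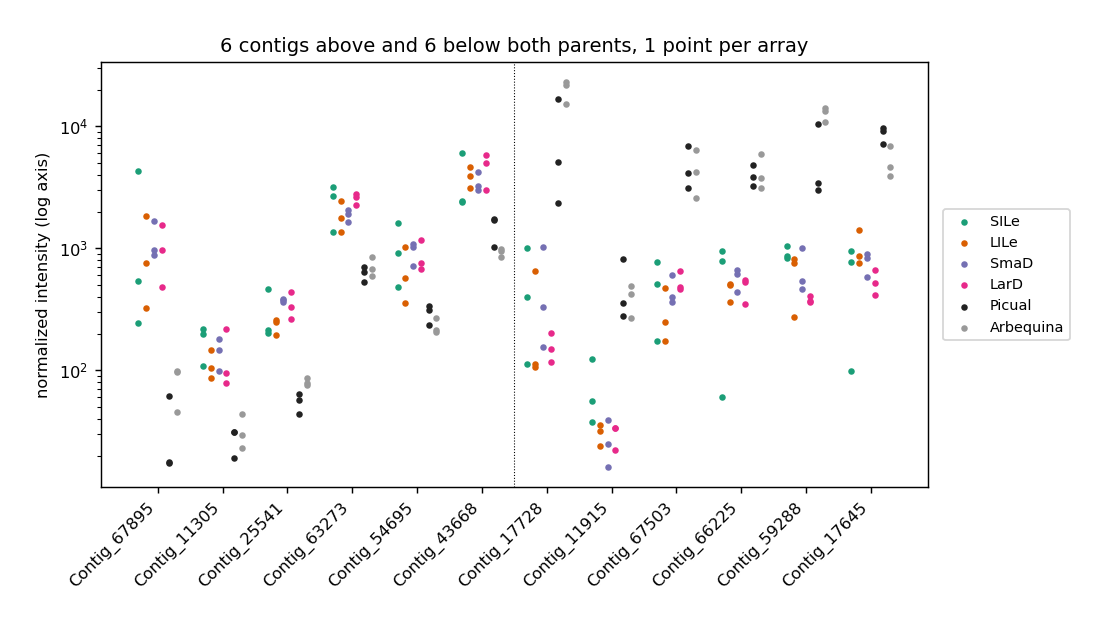
Normalized intensity (y axis, log scale) of the 6 contigs named above and the 6 named below both parents (x axis), 1 point per array, coloured by group. In each contig the 12 pool arrays lie on one side of the 6 parental arrays, and the single green points far from the other pool arrays, in Contig_67895, Contig_66225 and Contig_17645, are SILe replicate 3.

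Contig_12843, which has no gene name, was the 1 candidate of 14 that lay outside the range. It read 1049, 768 and 1498 in SILe, 866, 772 and 621 in LILe, 562, 728 and 991 in SmaD, and 997, 466 and 650 in LarD. Picual gave 3580, 4244 and 4208, and Arbequina 3133, 4799 and 4006. No pool array reached the lowest parental array, and the parents were at the same level (log2 difference 0.03 ± 0.31, adjusted p = 0.979). The pools were 5.05-fold below Picual (adjusted p = 5.27e-05) and 4.95-fold below Arbequina (adjusted p = 4.61e-05).

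Contig_12843 was also low in the pools of the other cross. ChiCa gave 833, 1258 and 745, complex branching 560, 631 and 565, and simple branching 379, 776 and 1655. Its parents gave 3373, 4385 and 4224 in Arbosana and 338, 2115 and 1517 in Chiquitita, so that the single Chiquitita array noted above is as low as the pools. The difference from that midpoint was -1.43 on the log2 scale with 15 arrays (adjusted p = 0.0528) and -2.01 with 13 (adjusted p = 9.89e-05). With 13 arrays these pools too were called below both of their parents, but with 15 they were not called against Chiquitita. The study had taken this contig from those without a significant difference between Chiquitita and ChiCa. In its quantitative RT-PCR, single ChiCa seedlings were lower than Arbosana and did not differ significantly from Chiquitita.

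The second cross gave values for the contigs outside the range in arrays that had no part in choosing them. With its 15 arrays, 274 contigs (0.732%) were higher and 255 (0.681%) lower in its pools than at its midpoint. Of the 42 contigs above both parents in Picual × Arbequina 8 were among the former, and of the 112 below both 47 were among the latter. In the opposite direction 0 were called, and 37 of the 42 and 109 of the 112 had the same sign, against 50.9% positive and 49.1% negative over all contigs. Against Chiquitita itself limma called 0 contigs with all arrays, with 2382 at an unadjusted p under 0.05.

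With 13 arrays, 643 contigs (1.72%) were higher and 602 (1.61%) lower than that midpoint, and 85 (0.227%) lay above and 156 (0.417%) below both of its parents. Of the 42 contigs 14 were then higher than the midpoint and 9 above both parents. Of the 112 contigs 84 were lower than the midpoint and 54 below both parents. Among the 12 named contigs outside the range these included Contig_67895, Contig_25541 and Contig_63273 above, and Contig_17728, Contig_67503, Contig_66225, Contig_59288 and Contig_17645 below. Which part of this the pooling of seedlings, their origin from seed or their ancestry has was not tested. Chiquitita is itself a selection from Picual × Arbequina, so the crosses are related.

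By group, the median intensity of the 112 contigs was between 328 and 469 in the 4 pools of Picual × Arbequina and between 246 and 326 in the 3 pools of Chiquitita × Arbosana. It was 1590 in Arbosana and 794 in Chiquitita. That of the 42 contigs was between 1040 and 1300 in the 4 pools and between 1210 and 1460 in the other 3, against 539 in Arbosana and 713 in Chiquitita. The medians for Chiquitita and simple branching leave out the arrays named above. With all arrays, Chiquitita was at 1080 for the 42 contigs, among the pools, and at 670 for the 112, and simple branching was at 1320 and 530. In dormant Picual shoot tips, of which there are 3 arrays, the medians were 575 for the 112 and 733 for the 42 contigs, between those of the pools and of active Picual in both lists, and the part of growth activity in the differences was not tested.

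**Figure D3:**
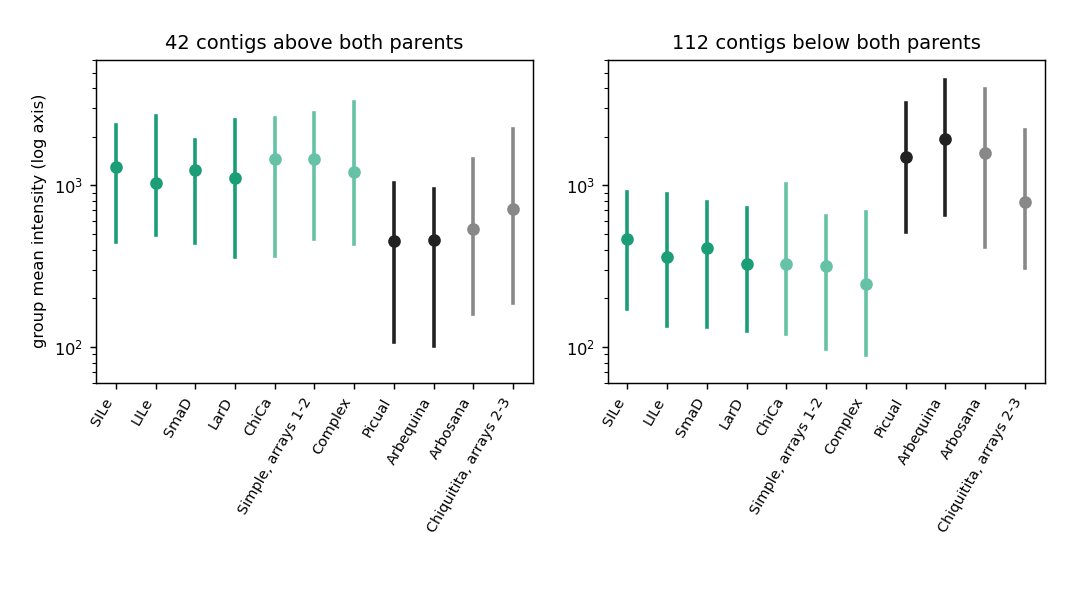
Median (point) and quartiles (bar) over contigs of the mean intensity of each group (y axis, log scale), for the 42 contigs above and the 112 below both parents. The first 4 groups and Picual and Arbequina chose the contigs. The pools of the second cross (pale green) sit with the pools of Picual × Arbequina, at 1210 to 1460 and 246 to 326, while Arbosana (539 and 1590) sits near the parents and Chiquitita (713 and 794) lies between parents and pools. Chiquitita replicate 1 and simple branching replicate 3 are left out, and with them Chiquitita has 1080 and 670 and simple branching 1320 and 530.

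The difference between the crosses was tested directly, as pools minus midpoint in Picual × Arbequina less the same in Chiquitita × Arbosana. It was called in 173 contigs (0.462%) with 33 arrays and 524 (1.4%) with 31, and in 13 and 14 of the 154. The 154 had been chosen by the Picual × Arbequina part of this difference on the same arrays. A greater share among them thus follows in part from that choice. Both midpoints were taken on log2 values, so a called difference also depends on how far apart the parents of each cross lie. Of the contigs above both parents, the difference was called in Contig_16524 and Contig_24575 with 33 arrays. Contig_16524 read 227, 270 and 866 in SILe, 683, 504 and 1319 in LILe, 875, 471 and 643 in SmaD, and 117, 87.9 and 178 in LarD, against 24.8, 11.1 and 10.9 in Picual and 139, 43.3 and 120 in Arbequina. Its LarD arrays overlapped Arbequina while the other pools lay above both parents, and the crosses differed by 3.80 on the log2 scale (adjusted p = 0.00118).

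Where the parents differed, the pools lay mostly between them. For the 2065 contigs called between Picual and Arbequina, the pool mean was placed on a log2 scale on which Arbequina is 0 and Picual is 1. The median place was 0.533, with quartiles of 0.288 and 0.793, and 83.9% of the contigs lay between the parents, 4.75% below 0 and 11.3% above 1. The medians of the pools were 0.462 in SILe, 0.608 in LILe, 0.576 in SmaD and 0.491 in LarD. Those of the 12 arrays ran from 0.367 (SILe replicate 2) to 0.629 (SmaD replicate 2), with an SD of 0.0876, and the SILe arrays alone ran from 0.367 to 0.623. Without Picual replicate 1 the median place was 0.38, and over the other omissions of an array it stayed at or under 0.581.

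The parental arrays set both the choice of these contigs and the ends of the scale. When contigs were called without the parental arrays of a number and the ends came from those left out, the median place was 0.574, 0.533 and 0.568 for numbers 1, 2 and 3. Counted from the lower (0) to the higher parent (1), the median place was 0.65 on the log2 scale. With held-out parental arrays it was 0.617, 0.681 and 0.748 for numbers 1, 2 and 3. The linear midpoint of the parents itself falls at a median of 0.65 on that scale, and on linear values the median place of the pools was 0.535, near the middle.

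**Figure D4:**
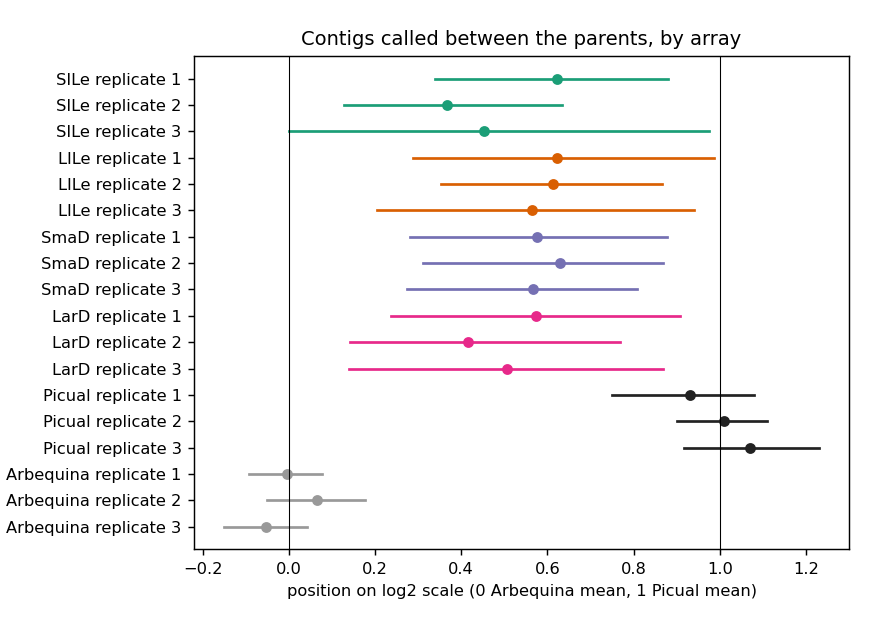
Place of each array between the parents on the log2 scale (x axis, 0 Arbequina mean, 1 Picual mean) as median (point) and quartiles (bar) over the 2065 contigs called between Picual and Arbequina. The 12 pool arrays have medians of 0.367 to 0.629, between the arrays of both parents. SILe replicate 3 has the widest quartiles, from 0.00128 to 0.975.

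The share of contigs with the pool mean between the parental means rose with the distance of the parents. It was 22.9% of 23878 contigs whose parents differed by less than 0.5 on the log2 scale, 52.3% of 9355 between 0.5 and 1, 73.2% of 3556 between 1 and 2, 84.5% of 459 between 2 and 3, and 89.6% of 201 at 3 or more. A pool mean beyond both parental means was thus common where the parents were close, and the contigs outside the range above had to be called against each parent.

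By calls, 674 of the 2065 contigs (32.6%) differed from Arbequina and were not called against Picual, and 520 (25.2%) differed from Picual and were not called against Arbequina. A further 82 (3.97%) differed from both and lay between them, 23 (1.11%) lay outside, and 766 (37.1%) were called against neither. A contig not called against a parent is not shown to equal it. The pools were on the side of the higher parent, and called against the lower one only, in 840 contigs (40.7%), and on the side of the lower parent in 354 (17.1%). Without SILe replicate 3 these were 1023 (35.4%) and 506 (17.5%) of 2890. The linear midpoint of the parents lies nearer the higher parent on the log2 scale, at a median place of 0.65. These counts are therefore no measure of expression level dominance. Among the 870 contigs higher in Picual, 412 were on the Picual side and 92 on the Arbequina side. Among the 1195 higher in Arbequina, 262 and 428 were.

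Contig_35467, the putative olive ortholog of SVP, a MADS-box gene that represses flowering in Arabidopsis, was on the side of Picual. Its intensities were 2332, 1526 and 4375 in SILe, 2252, 2317 and 2558 in LILe, 2778, 2290 and 1968 in SmaD, and 2659, 2266 and 2456 in LarD. Picual gave 2538, 1477 and 1592, while Arbequina gave 58.1, 88.3 and 37.4. Every pool array lay above every Arbequina array, and the pool arrays overlapped those of Picual.

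For SVP the pools were 41.8-fold above Arbequina (log2 5.38 ± 0.28 SE, adjusted p = 2.9e-08) and 2.90 ± 0.22 above the midpoint on the log2 scale (adjusted p = 2.86e-06). The difference from Picual was 0.41 ± 0.28 (adjusted p = 0.385). The pool means were 2744 in SILe, 2376 in LILe, 2345 in SmaD and 2460 in LarD, with an SD of 182 over the 4, and the pools did not differ in the F test (adjusted p = 0.998). On the linear scale, the mean of the pools (2481) lay above both parental means, 1869 ± 582 in Picual and 61.3 ± 25.6 in Arbequina (SD, n = 3).

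In the second cross, SVP read 2384, 2010 and 1911 in Chiquitita and 631, 423 and 199 in Arbosana, and its 3 pools ran from 1315 to 3452. These pools lay 1.38 above their midpoint on the log2 scale (adjusted p = 0.011), and the crosses differed by 1.52 (adjusted p = 0.0343), or 1.39 with 31 arrays (adjusted p = 0.0454). The lower parent of each cross was far apart in level: 61.3 in Arbequina and 418 ± 216 in Arbosana.

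Among contigs without gene names, Contig_19725 had the greatest parental difference in which the pools were on the Picual side. Picual gave 8788, 8006 and 6766 and Arbequina 20.0, 22.7 and 16.4, and the 12 pool arrays ran from 3757 to 5981. All pool arrays lay below all Picual arrays, by 1.58-fold in the means (adjusted p = 0.0204), which is under the 2-fold minimum. In Contig_31969 the pools (1944 to 4322) overlapped Picual (2214 to 4563), while Arbequina gave 16.7 to 29.9. Of the contigs high in Arbequina, Contig_15581 read 1020 to 1147 there, 15.1 to 54.1 in Picual and 18.7 to 133 in the pools. Contig_25172 read 755.5 to 1345 in Arbequina, 17.9 to 103 in Picual and 48.7 to 205 in the pools.

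On the Arbequina side, Contig_32787 read 8600, 5847 and 8101 in Arbequina and 15.3, 21.2 and 24.7 in Picual. The pools ran from 4644 to 13724 and overlapped Arbequina (log2 difference 0.05 ± 0.26, adjusted p = 0.929), and lay 384-fold above Picual (adjusted p = 1.03e-10). Contig_23400 read 1372 to 2000 in Arbequina, 11.42 to 12.02 in Picual and 31.8 to 1399 in the pools, and its lowest pool array was SILe replicate 3. Without that array the pools of Contig_23400 were called below Arbequina (adjusted p = 0.00731) and above Picual, and thus lay between the parents. Its call against the midpoint (log2 1.78, adjusted p = 0.0329) was kept in only 9 of 18 omissions of a single array. In the 2 contigs of the Arbequina side that were high in Picual, 1 Picual array stood far above the others. Contig_22847 read 344, 571 and 2711 in Picual, and Contig_60820 read 270, 277 and 2009, with 28.2 to 477 and 27.8 to 181 in the pools.

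Few contigs were called among the pools themselves. An F test among the 4 pools called 64 contigs (0.171%), and 105 without SILe replicate 3. Of the 2065 contigs called between the parents 37 were among them (1.79%), and of the 154 outside the range only Contig_23522 was. By place, the test called 16 of the 82 contigs between the parents (19.5%), 12 of the 674 on the Picual side (1.78%) and 4 of the 520 on the Arbequina side (0.769%). The places and the F test share the pool arrays and the residual variance, so these shares are a description only.

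In Contig_23522 the SmaD arrays gave 17.7, 13.5 and 40.7, against 244, 140 and 85.9 in SILe, 87.9, 58.7 and 77.7 in LILe and 90.8, 72.0 and 103 in LarD. Picual gave 514, 453 and 671 and Arbequina 366, 306 and 233, so that the mean of every pool was below both parental means and SmaD was the lowest, while SILe replicate 1 overlapped Arbequina (F test, adjusted p = 0.0329).

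In 2 contigs between the parents, a mean over pools stood for pools at opposite parental levels. Contig_59827 read 3685, 4163 and 3884 in Picual and 44.8, 58.5 and 28.5 in Arbequina. LILe gave 33.5, 31.3 and 36.8, which overlaps Arbequina. SILe gave 1036, 1246 and 736, SmaD 2088, 2040 and 2242, and LarD 3292, 2295 and 3840.

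In Contig_59827 the 4 pools did not overlap, LILe was among the Arbequina values and LarD overlapped Picual (F test, adjusted p = 2.21e-08). The place of the pool mean was 0.615. In Contig_22706 the order was another one: SILe (38.0, 46.5 and 21.8) overlapped Arbequina (62.7, 39.5 and 54.6), while LILe (2350, 1888 and 3158) overlapped Picual (2841, 1963 and 5428). SmaD (1178, 783 and 650) and LarD (1926, 640 and 1508) lay below Picual and above Arbequina (F test, adjusted p = 3.56e-05). SILe replicate 3 was the lowest SILe array in both contigs, and its distance from the other SILe arrays was small beside the differences among the pools.

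The other 2 contigs named between the parents had no such split. Contig_52085 read 8775 to 10007 in Arbequina, 17.4 to 43.2 in Picual and 1458 to 7908 in the pools, and Contig_2311 read 5274 to 6677, 18.4 to 23.2 and 498 to 4701. On the log2 scale both lay nearer to Arbequina (2.81-fold and 3.51-fold below it). On the linear scale the pool means, 3781 and 2090, lay nearer to Picual, with Arbequina at 9471 and 6168 and Picual at 28.8 and 21.2, and the F test gave an adjusted p of 0.495 and 0.535.

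**Figure D5:**
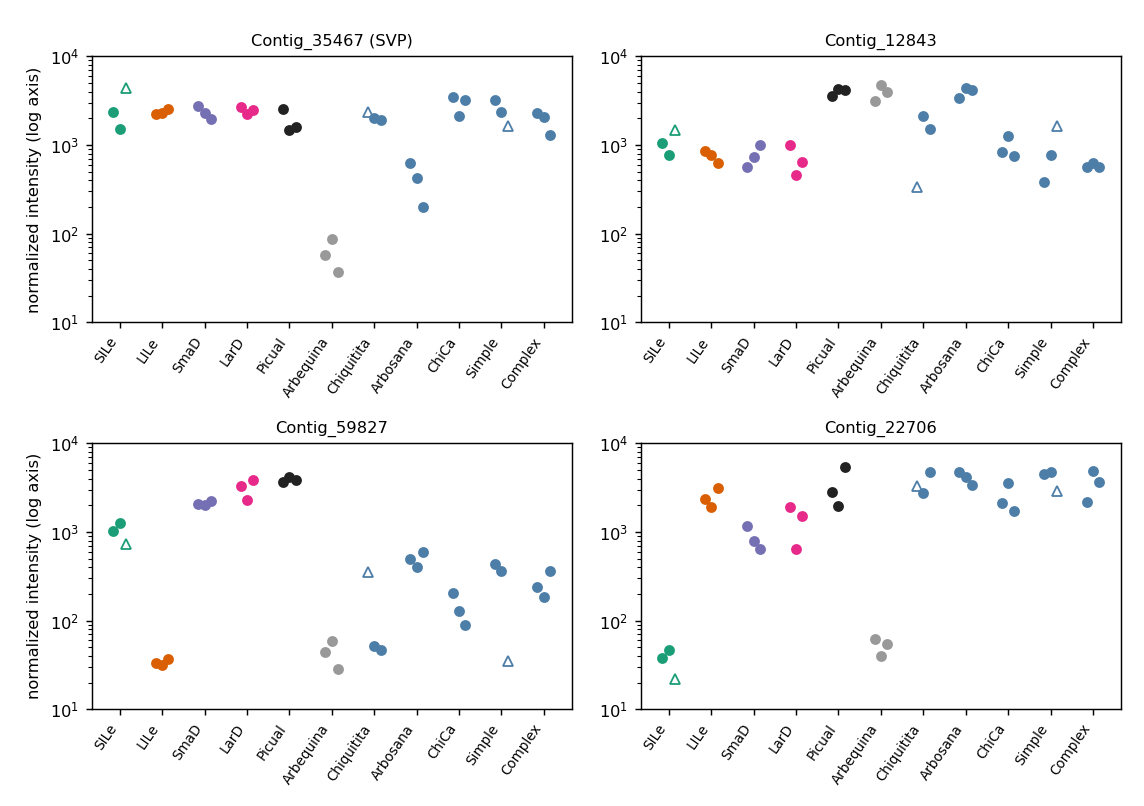
Normalized intensity (y axis, log scale) of 4 contigs in the 11 groups of active shoot tips (x axis), 1 point per array, with open triangles for SILe replicate 3, Chiquitita replicate 1 and simple branching replicate 3. SVP overlaps Picual in the 4 pools, Contig_12843 is below both parents, and in Contig_59827 and Contig_22706 a different pool shares the level of Arbequina.

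Of the 14 candidates, 1 (SVP) was higher and 2 (Contig_12843 and Contig_29050) were lower in the pools than at the midpoint, and 11 were not called, where 1.13% of all contigs were higher and 1.09% lower. Their median difference was 0.04 on the log2 scale, and that of all contigs was -0.000977. Contig_29050, which has no gene name, read 139, 187 and 56.3 in SILe, 142.5, 109 and 105 in LILe, 49.9, 99.6 and 119 in SmaD, and 49.2, 140 and 88.0 in LarD. Picual gave 290, 313 and 245 and Arbequina 185, 149 and 183. The pools lay below all Picual arrays and overlapped Arbequina. They were 2.85-fold below Picual (adjusted p = 0.0207) and 1.74-fold below Arbequina (adjusted p = 0.19), and the call against the midpoint (log2 -1.15 ± 0.27, adjusted p = 0.0211) was lost without Picual replicate 2, Arbequina replicate 1 or Arbequina replicate 3. It was also lost in a fit over 36 arrays and with the covariate for the replicate direction, where the log2 difference was -0.74.

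Contig_17106 (SCL30), a Scarecrow-like protein of the GRAS family of regulators, differed between the parents, with 2360, 2387 and 2148 in Picual and 1027, 770 and 1112 in Arbequina (2.40-fold, adjusted p = 0.00343). The pools lay between them, with means of 1782 ± 331 in SILe, 1911 ± 605 in LILe, 1221 ± 100 in SmaD and 1789 ± 90.4 in LarD (SD, n = 3). They were 1.70-fold above Arbequina (adjusted p = 0.0162, under the 2-fold minimum) and 1.41-fold below Picual (adjusted p = 0.114).

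Contigs of meristem and cell division regulators were not called against the midpoint. These were CLV1 (Contig_43041), a receptor kinase that limits the stem cell pool of the Arabidopsis meristem (log2 0.08 ± 0.23, adjusted p = 0.849), CDC45 (Contig_44219), a factor of DNA replication (log2 0.01 ± 0.27, adjusted p = 0.985), and SYD (Contig_67514), a chromatin remodeling ATPase (log2 -1.59 ± 0.74, adjusted p = 0.183). CLV1 and CDC45 were bright in pools and parents, with array intensities of 2482 to 11892 and 352 to 2424, and the lowest value of each was SILe replicate 3. SYD read 318, 560 and 7450 in Picual, so its parental mean rests on a single array. These 3 contigs were taken as the markers of shoot apex and dividing cells.

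Contigs of hormone and wall genes were not called either. DWF4 (Contig_61776), an enzyme of brassinosteroid synthesis, had 28.2 to 177 in the pools and 81.5 to 193 in the parents. SPY (Contig_10295), a repressor of gibberellin signaling, had 95.1 to 699 and 105 to 218, and its highest pool value was SILe replicate 3. IRX1 (Contig_6392), a cellulose synthase of secondary walls, had 64.8 to 2849 and 202 to 1234. In a fit with array weights, however, IRX1 was called higher than the midpoint (log2 1.31). In the second cross its pools were called lower than their midpoint (log2 -1.08, adjusted p = 0.0145). TPR1 (Contig_50371), a Topless-related corepressor, EDL2 (Contig_40482), an EID1-like F-box protein, and Contig_15512 lay between log2 -0.13 and 0.29 from the midpoint.

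Contig_44917 (SAL1), a phosphatase that acts on inositol phosphates and bisphosphate nucleotides, was instead called in the difference between the crosses, taken from log2 midpoints. Its pools read 488 to 2476 and its parents 1823 to 2326 in Picual × Arbequina, with the lowest value in SILe replicate 3, and the difference from the midpoint was -0.41 ± 0.20 (adjusted p = 0.202). In the second cross the pools lay 0.89 above a midpoint lowered by Arbosana, which read 424, 420 and 251 (adjusted p = 0.0291, under the 2-fold minimum). The crosses differed by -1.30 on the log2 scale (adjusted p = 0.0318), and by -1.09 with 31 arrays (adjusted p = 0.0447).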

How the data were processed

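The authors hybridized the arrays (NimbleGen, Cy3) and normalized them by RMA, per the labels and the submitters' processing notes. The version is not given in the sources used here. The deposited table gives a normalized, linear intensity for every contig on every array, from 6.74 to 61165 over these arrays, and log2 was taken here. A further deposited table was left out, because its 36 columns name no sample. Arrays have no read depth, and their number limits the precision.

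Fits used limma 3.58.1 (lmFit and eBayes) in R 4.3.3, with 1 mean per group over 18 arrays, no covariate, no filter, and Benjamini-Hochberg adjustment over 37449 contigs. Figures used Python 3.11.15, numpy 2.4.6 and matplotlib 3.10.9. On simulated data, 76% and 82% of contigs changed by 1.5 and -1.5 (log2) against the midpoint were called, and 98% and 100% at 2.5 and -2.5. Of 50 contigs each, 27 and 28 were called outside the range at 1.5 and -1.5, and 39 and 45 at 2.5 and -2.5. The simulation had independent errors, equal parents and the same shift in all 4 pools. It held no spread between pools and no outlying array, unlike these data.

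Named contigs were the 14 candidates. Outside the range, they were the first 6 in each direction by the smaller log2 difference from a parent, among contigs called with all arrays and without SILe replicate 3 and without overlap of the arrays (18 of 42 above, 94 of 112 below). Among contigs called between the parents without overlap of their arrays, they were the 2 with the greatest difference in each direction and place. Contig_16524, Contig_24575 and Contig_23522 were named after their values were seen. Contigs, lists and tests were chosen with earlier results of these data known. Gene names come from the study. Of the 14 contigs, 12 have primer pairs.

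Alternatives were each array or pool left out, group means as samples, array weights, a replicate block, centring, quantile normalization, an intensity trend, a filter on dim contigs, a fit over 36 arrays, a covariate for the direction along which replicates differ, linear values and the methods' t-test. The second cross without 2 arrays, held-out parental arrays and group means without SILe replicate 3 were added after seeing the data.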

Additional observations from a re-analysis of the deposited data

Results flagged for a closer look

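The difference between pools and parental midpoint was not the same in both crosses for 2 of the 14 candidates, where 0.462% of all contigs were called (1.4% with 31 arrays). For Contig_35467 (SVP) it was 1.52 on the log2 scale (Picual × Arbequina minus Chiquitita × Arbosana, limma over 33 arrays, adjusted p = 0.0343). For Contig_44917 (SAL1) it was -1.30 (adjusted p = 0.0318). Without SILe replicate 3 the values were 1.42 and -1.17. The linear mean of SVP was 2481 over the 4 pools of Picual × Arbequina. It was 2923 in ChiCa, 2404.5 in simple branching and 1885 in complex branching. For SAL1 these means were 1649, and 1689, 1612 and 1702. A log2 midpoint lies further below the linear one the more the parents differ, so the difference also depends on the parental distance in each cross. Linear midpoints were not used in this test. Most candidates had been chosen for a difference between Chiquitita and Arbosana on arrays that enter this test. Their share called and that of all contigs thus do not compare like with like.

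The 4 pools differed among themselves in 2 of the contigs named between the parents: Contig_59827, with an adjusted p of 2.21e-08 in the F test, and Contig_22706, with 3.56e-05. Groups of 3 arrays were not tested for single outlying arrays.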

How the results depend on the processing

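Leaving out 1 array in turn gave 482 to 1672 calls for the pools against the midpoint, 416 to 2776 against Picual, 674 to 2081 against Arbequina, 1085 to 2890 between the parents and 85 to 211 contigs outside the range, and a median place of 0.38 to 0.581. Other single arrays that moved a count by over 1.5 times were Picual replicate 2 (576 against Picual), Picual replicate 3 (1303 between the parents) and Arbequina replicate 1 (1011 against Arbequina, 1234 between the parents). In the order midpoint, Picual, Arbequina, parents and outside the range, group means as samples gave 121, 52, 192, 119 and 8, the same without SILe replicate 3 gave 171, 154, 288, 303 and 22, and array weights gave 1258, 3142, 2947, 5789 and 351. Against the midpoint and against Picual, leaving out the pool LarD gave 537 and 776, leaving out the pool SILe 1441 and 2486 (321 outside the range), the covariate for the replicate direction 426 and 752, the methods' t-test 1479 and 2456, and its adjusted p 490 and 696 (403 between the parents). With no fold minimum 2638 contigs differed from the midpoint. On 9 arrays (a pool and both parents) SILe gave 33 calls and LarD 2000, and without SILe replicate 3 the pools gave 177 (SILe), 1251 (LILe), 632 (SmaD) and 3206 (LarD), with 105 in the F test. Without 2 arrays of the second cross, that cross gave 1245 calls and the difference of crosses 524. The cause of these shifts was not tested.

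Same-numbered arrays did not deviate together (median r of -0.0632 over 45 pairs, 13 over 0.1), so the numbers do not pair them. With the replicate number as a block, 778 contigs differed from the midpoint, 138 lay outside the range and the F test called 42. No named contig that was called, with all arrays or under an alternative, changed its sign between them. Among those not called, the sign did change on leaving out an array in CLV1, TPR1, DWF4, SPY and CDC45. With group means as samples 14 of 38 named results lost their call. Contigs of low intensity are the least certain, since signal over background was not examined.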
